A study of Mus musculus with 12 samples.

Results

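The Hoxb genes are the 10 homeobox genes of the mouse Hoxb cluster on chromosome 11, namely Hoxb1, Hoxb2, Hoxb3, Hoxb4, Hoxb5, Hoxb6, Hoxb7, Hoxb8, Hoxb9 and Hoxb13. They were examined in chromatin of young and old mesenchymal stem cells (MSCs), stromal cells able to differentiate into bone, cartilage and fat. A called region belonged to the Hoxb genes if it overlapped the body of any of the 10 genes or the 50 kb on either side of it. This window ran over 273.941 kb, from 96144316 to 96418256 of the GRCm38 (mm10) build. Of the 59664 regions in the whole series, 2 qualified, namely 1 of 31617 regions of H3K27ac and 1 of 28047 regions of H3K27me3.

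Both marks were profiled by CUT&RUN, in which an antibody tethers a nuclease to a histone mark so that the DNA beside it is cut out and sequenced. H3K27ac, acetylation of lysine 27 on histone H3, marks active promoters and enhancers, whereas H3K27me3, trimethylation of the same lysine, marks chromatin repressed by Polycomb. The 12 libraries fell into 4 groups of 3 replicates. Young MSCs came from mice of 3 to 5 months and old MSCs from mice of 18 to 22 months, and all cells were kept in αMEM with serum at 2% oxygen. The labels state that each sample was split between an H3K27ac tube and an H3K27me3 tube. Genotype, strain, sex, tissue of origin, number of mice and batch were not given in the labels. The labels do not say that replicates came from separate animals, so the p-values measure the spread between these samples, which may be technical.

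Hox genes encode transcription factors that give cells along the body axis and the limbs their positional identity. Within a cluster the genes are arranged in the order of the body segments in which they act, with Hoxb1 at the anterior end and Hoxb13 at the posterior end. Outside their domain of activity Hox clusters are classical targets of Polycomb complexes, which deposit H3K27me3 over them in broad blocks, and retinoic acid is a well known inducer of the anterior genes. Adult stromal cells retain a Hox pattern that reflects the site from which they were taken.

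The 10 genes, all transcribed from the plus strand, were found within a single H3K27me3 region and outside every H3K27ac region. The H3K27me3 region extended from 96075501 to 96720000 on chromosome 11, which is 644.5 kb, and had been called by the authors in both ages. It contained 100% of the bases and the transcription start site (TSS) of each of the 10 genes. Among 21938 protein-coding genes of the annotation, 11.7% lay wholly inside H3K27me3 with 0 bases inside H3K27ac, a state of 2564 genes in all. A single value therefore stands for all 10 genes and for the DNA between and around them, and no gene of the cluster can be resolved from another.

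Sequences are shown for the parts of the region whose DNA carries a gene product or a start site. Both microRNA genes of the cluster, Mir10a (96317165 to 96317274, upstream of Hoxb4) and Mir196a-1 (96265164 to 96265265, upstream of Hoxb9), were also inside H3K27me3 over 100% of their hairpins. MicroRNAs of these families are known to target Hox transcripts. The mature 5p sequences from RefSeq are given with the seed, bases 2 to 8, in capitals, since the seed connects them to their copies in the other clusters.
mmu-miR-10a-5p: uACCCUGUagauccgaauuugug
mmu-miR-10b-5p: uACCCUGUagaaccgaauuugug
mmu-miR-196a-5p: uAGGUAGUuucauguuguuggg
mmu-miR-196b-5p: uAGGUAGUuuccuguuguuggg

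The seed ACCCUGU was shared by miR-10a-5p and by miR-10b-5p, whose gene lies in the Hoxd cluster and was also 100% inside H3K27me3. The seed AGGUAGU was shared by miR-196a-5p and miR-196b-5p. Mir196a-1 of the Hoxb cluster and Mir196a-2 of the Hoxc cluster encode the same miR-196a-5p, but the hairpin of Mir196a-2 was 100% inside H3K27ac and 0% inside H3K27me3, as was that of Mir196b in the Hoxa cluster. The same mature microRNA was thus encoded by a copy within H3K27me3 and another within H3K27ac, and these files hold no measure of which copy was transcribed.

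RefSeq promoter entries on GRCm38.p6 were found for 3 of the 10 genes, Hoxb1, Hoxb4 and Hoxb8, and the 250 bases upstream of each start are shown because the start sites lay inside the H3K27me3 region. Capitals mark matches on either strand to TATAAA (a core promoter element), CCAAT (the site of NF-Y), AGGTCA (a site of retinoic acid receptors) and TGATNNAT (a site of Hox and Pbx proteins). The plus-strand coordinates are chr11:96365508-96365757 for Hoxb1, chr11:96318017-96318266 for Hoxb4 and chr11:96281655-96281904 for Hoxb8.
Hoxb1: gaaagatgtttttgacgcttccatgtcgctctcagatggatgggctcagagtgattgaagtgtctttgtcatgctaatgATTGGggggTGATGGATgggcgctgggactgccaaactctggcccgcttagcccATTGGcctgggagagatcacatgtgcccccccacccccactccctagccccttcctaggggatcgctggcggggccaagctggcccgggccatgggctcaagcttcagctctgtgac
Hoxb4: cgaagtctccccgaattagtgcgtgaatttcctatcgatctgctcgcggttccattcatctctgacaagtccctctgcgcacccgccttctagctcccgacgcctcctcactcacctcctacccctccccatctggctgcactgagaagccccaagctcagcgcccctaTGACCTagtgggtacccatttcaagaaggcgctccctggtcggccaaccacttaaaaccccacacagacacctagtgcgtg
Hoxb8: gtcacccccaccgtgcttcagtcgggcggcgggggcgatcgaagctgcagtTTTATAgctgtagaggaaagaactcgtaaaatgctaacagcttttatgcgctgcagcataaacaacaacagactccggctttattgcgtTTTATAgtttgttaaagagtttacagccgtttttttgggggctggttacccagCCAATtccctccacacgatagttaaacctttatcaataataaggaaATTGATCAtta

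The Hoxb1 sequence contained 2 matches to CCAAT and 1 to TGATNNAT, the Hoxb4 sequence 1 match to AGGTCA, and the Hoxb8 sequence 2 matches to TATAAA, 1 to CCAAT and 1 to TGATNNAT. Over the 300-base windows of all 32851 promoters, TATAAA was present in 13.6%, CCAAT in 37.4%, AGGTCA in 16.3% and TGATNNAT in 8.85%. In the same 300-base windows, CG occurred 10 times for Hoxb1, 14 times for Hoxb4 and 13 times for Hoxb8, and the median of all promoters was 7. At least as many CG were found in 43.5, 36.3 and 37.9% of all promoters, respectively. These matches are letters in the DNA and were not tested for binding.

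The Hoxb gene bodies had more CpG and fewer repeats than the median coding gene. The median over the 10 bodies was 3.23 CpG per 100 bases, against 1.19 over 21911 coding gene symbols. Hoxb8, at 4.98, was the highest of the 10 and Hoxb3, the longest gene of the cluster at 24.605 kb, was the lowest at 2.19. Even the value of Hoxb3 was reached by only 13.2% of coding genes. Repeats took up 7.02% of the Hoxb13 body and 22.4% of the Hoxb8 body, the lowest and the highest of the 10, with a median of 14.8% against 22.5% for coding genes. From Hoxb9 to Hoxb1, a stretch of 96.8 kb, CpG reached 2.55 per 100 bases and repeats 18.0%. Over the whole H3K27me3 region these values were 1.48 and 27.8%, and the CpG value ranked 65 of the 901 H3K27me3 regions of 100 kb or more. The median of these long regions was 1.06. The repeat share of the Hoxb region ranked 706 of 901 from the lowest, above their median of 23.7%.

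**Figure D1:**
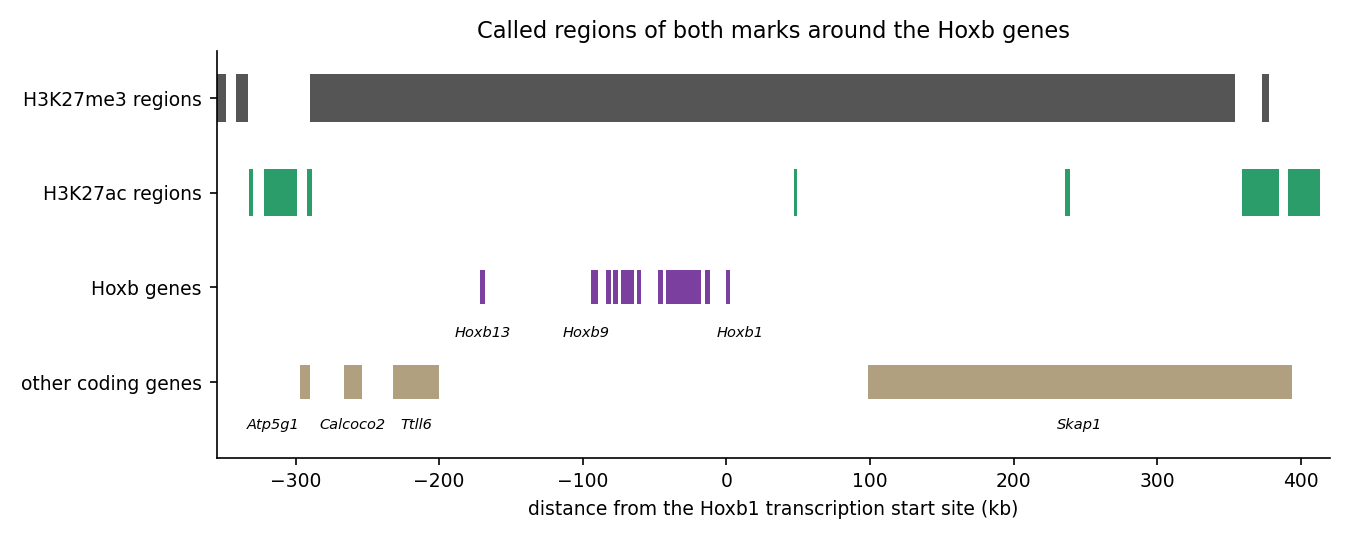
Map of the called regions of both marks and of coding genes along chromosome 11, with the distance from the Hoxb1 TSS in kb on the horizontal axis. Bars are drawn to scale from start to end; all 10 Hoxb genes lie under the single H3K27me3 region of 644.5 kb, and the nearest H3K27ac region on the Hoxb1 side begins 47.2 kb from the Hoxb1 TSS.

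The H3K27me3 region reached far beyond the cluster. The stretch from the start of Hoxb13 to the end of Hoxb1 measured 173.941 kb, or 26.99% of the region, with 118.815 kb before Hoxb13 and 351.744 kb after Hoxb1. Hoxb13 stood apart from the other 9 genes, with 74.0 kb between its end and the start of Hoxb9, and this gap was inside the region as well. The region overlapped 28 annotated genes, of which 14 were protein-coding. Beside the 10 Hoxb genes these were Calcoco2, an autophagy receptor gene, and Ttll6, a tubulin glutamylase gene, both wholly inside, Skap1, a T cell adaptor gene of which 86.7% was inside, and Atp5g1, a subunit gene of the mitochondrial ATP synthase. Of Atp5g1 2.49% was inside, and its TSS also lay in an H3K27ac region. Also inside were the noncoding genes Hoxb5os and Hoxb3os, antisense to the cluster, and Gm53, upstream of Hoxb9.

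H3K27ac was absent as a called region from 96077001 to 96413000, a stretch of 336 kb that holds all 10 genes. Of 31596 stretches between neighbouring H3K27ac regions, 3.21% were at least that long, and the median was 17.5 kb. The distance from the TSS to the nearest H3K27ac region increased along the cluster from 47.2 kb at Hoxb1 through 62.5 kb at Hoxb2, 89.7 kb at Hoxb3 and 94.7 kb at Hoxb4 to 110 kb at Hoxb5. It continued to 121 kb at Hoxb6, 126 kb at Hoxb7, 131 kb at Hoxb8 and 142 kb at Hoxb9. For Hoxb13 the nearest region lay on the other side, at the start of Atp5g1, 117 kb away. The median over the 10 genes was 113 kb, whereas the median over all coding TSS was 0 kb. As many as 17.4% of coding TSS were at least as far from H3K27ac as the Hoxb median. The tables give values for called regions only, so reads of H3K27ac below the calling threshold of the authors cannot be seen here.

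The H3K27me3 region was the longest of all 28047, ahead of a region of 640.5 kb on chromosome 2 with the TSS of Kif5c, Lypd6b and Lypd6. It held 13464, 14464 and 11755 reads in young replicates 1, 2 and 3, and 12481, 4459 and 6768 reads in old replicates 1, 2 and 3. Signal is the number of reads per 1000000 reads of the library divided by a constant 0.5 kb, and scaled means brought to a common level between libraries by the median of ratios (RLE). Its signal, a sum over the region, was the highest in each of the 6 libraries, 1.49 to 1.67 times that of the region ranked next. Length alone could place it high, so the signal was also divided by length. Per kb it ranked between 131 and 220 of 28047, and between 14 and 28 of the 901 regions of 100 kb or more. Its reads per kb were 4.17 to 6.84 times the mean of the genome in the same library. The next region by length had a mean of 1.21 scaled reads per kb per 1000000 library reads, against 2.08 for the Hoxb region.

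**Figure D2:**
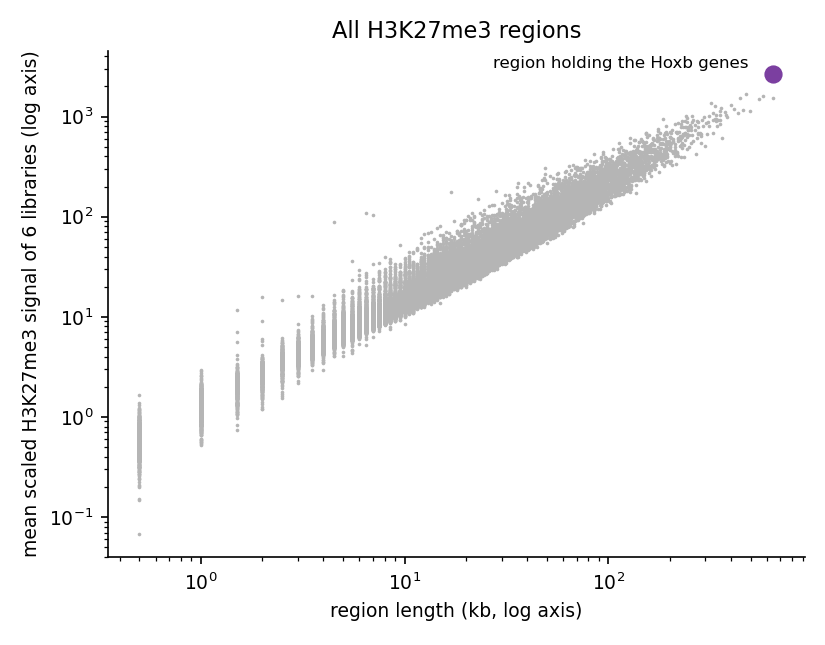
Mean scaled H3K27me3 signal of 6 libraries (vertical, log axis) against length in kb (horizontal, log axis), with a grey point for each of the 28047 regions and a large point for the region of the Hoxb genes. Signal grows with length, and the Hoxb region lies at the upper right end, at 644.5 kb and a mean signal of 2675.

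To ask whether H3K27me3 over the Hoxb genes differed with age, the scaled signal of the region was compared between old and young MSCs. In young MSCs the scaled signal was 2659, 2910 and 3075 in replicates 1, 2 and 3, a mean of 2881 ± 209 (SD, n = 3). In old MSCs it was 2724, 2536 and 2145, a mean of 2469 ± 295 (SD, n = 3). The groups overlapped, since old replicate 1 was above young replicate 1, although the other 2 old libraries were below every young library.

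The log2 fold change of old over young was -0.23 (SE 0.08, 95% interval -0.39 to -0.06), equal to a fold of 0.854. It did not pass the test over all regions, with an adjusted p of 0.190 by limma with Benjamini-Hochberg adjustment, at an unadjusted p of 0.00998. Background rates in the same fit were 0.488% of H3K27me3 regions called at an adjusted p under 0.05, 13.9% with an unadjusted p under 0.05 and 19.1% with groups that did not overlap. An exact two-sided permutation test of the scaled signal gave p = 0.20, where 0.10 is the smallest p that 3 against 3 samples allow. Leaving out old replicate 3 reduced the log2 fold change to -0.13. Without scaling between libraries it was -0.35, with all regions shifted to a median of -0.13, and with scaling on the regions of 100 kb or more alone it was -0.15.

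As a share of all reads of the library, the region took 0.135% (95% Wilson interval 0.133 to 0.138), 0.154% (0.152 to 0.157) and 0.162% (0.159 to 0.165) in young replicates 1, 2 and 3. In old replicates 1, 2 and 3 the share was 0.134% (0.132 to 0.137), 0.123% (0.120 to 0.127) and 0.0987% (0.0964 to 0.101). On this measure the groups did not overlap, though the intervals of young replicate 1 and old replicate 1 did. The exact permutation test gave its smallest value, p = 0.10. How many of all H3K27me3 regions had groups that did not overlap on this measure was not counted. On scaled signal it was 19.1% of all regions and 29.1% of those of 100 kb or more. Less of each old library fell in H3K27me3 regions, 53.8 to 60.8% against 62.3 to 66.6% in young libraries, and how much this contributed was not tested. As a share of the reads in H3K27me3 regions the Hoxb region took 0.217, 0.232 and 0.243% in young and 0.221, 0.207 and 0.184% in old MSCs, and these overlapped again (exact permutation p = 0.20).

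With scaling over all regions, long H3K27me3 regions were mostly lower in old MSCs, and the Hoxb region was among them. Of the 901 regions of 100 kb or more, 76.4% had a negative log2 fold change, with a median of -0.09, compared with 51.4% and -0.01 over all regions. Of the 36 regions of 300 kb or more, 94.4% were negative, with a median of -0.13 and a range of -0.40 to 0.02. The change of the Hoxb region was exceeded in the negative direction by 9.43% of the regions of 100 kb or more and by 18.7% of all regions. Among the 901, groups did not overlap in 29.1% and 0.555% were called. These shares depend on the scaling. Scaling on the regions of 100 kb or more alone removes a shift common to them by construction. With it the median log2 fold change of all H3K27me3 regions was 0.07.

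**Figure D3:**
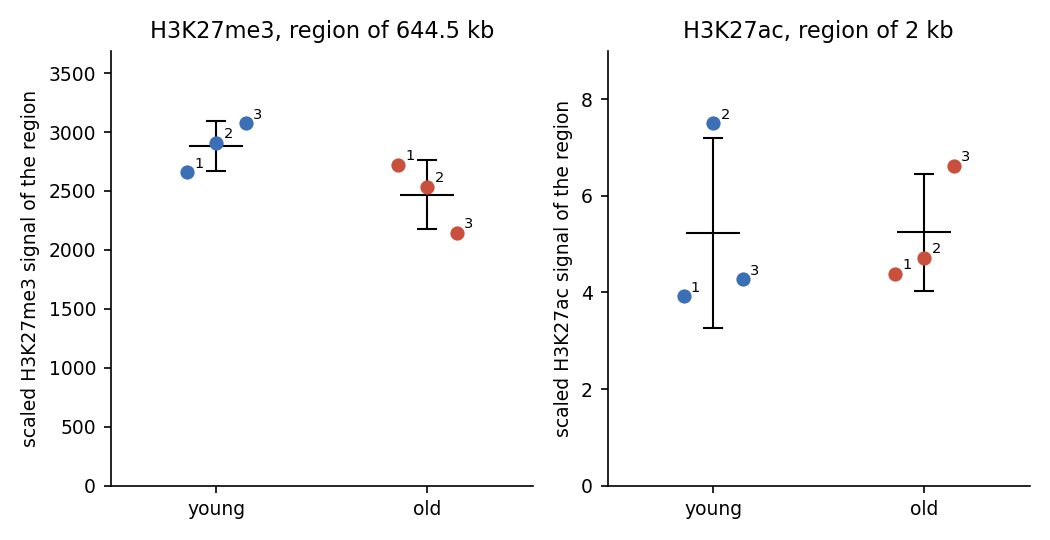
Scaled signal (vertical axes, from 0) of the H3K27me3 region over the Hoxb genes (left) and of the H3K27ac region beyond Hoxb1 (right) in young and old MSCs; points are libraries numbered by replicate, and horizontal bars with error bars are the mean ± SD of 3. Old replicate 1 lies above young replicate 1 in H3K27me3, and the ages are interspersed in H3K27ac.

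The only H3K27ac region in the window was a short intergenic element beyond the anterior end of the cluster. It covered 2 kb, from 96413001 to 96415000, and overlapped 0 annotated genes. It lay 44.7 kb after the end of Hoxb1 and 49.6 kb before the TSS of Skap1, within the H3K27me3 region, and was called by the authors in both ages. The central 300 bases, chr11:96413851-96414150 on the plus strand of GRCm38.p6, are shown in lower case because this is the acetylated element nearest to 9 of the 10 genes, and they contained 5 CG.
Centre of the H3K27ac region: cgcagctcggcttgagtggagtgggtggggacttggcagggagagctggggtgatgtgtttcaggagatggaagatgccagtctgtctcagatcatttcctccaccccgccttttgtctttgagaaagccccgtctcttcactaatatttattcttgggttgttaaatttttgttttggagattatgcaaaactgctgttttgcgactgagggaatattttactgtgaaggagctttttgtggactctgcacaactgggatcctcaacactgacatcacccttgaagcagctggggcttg

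This element held few reads. There were 12, 13 and 13 reads in young replicates 1, 2 and 3, and 11, 6 and 13 in old replicates 1, 2 and 3. The scaled signal was 3.92, 7.50 and 4.28 in young MSCs, a mean of 5.23 ± 1.97 (SD, n = 3), and 4.38, 4.72 and 6.62 in old MSCs, a mean of 5.24 ± 1.21 (SD, n = 3). Young replicate 2 was the highest and young replicate 1 the lowest, so that the old libraries lay between them.

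The log2 fold change was 0.03 (SE 0.35, 95% interval -0.67 to 0.74, adjusted p = 0.989 by limma with Benjamini-Hochberg adjustment), and the exact permutation p was 1. The interval spans folds of 0.629 to 1.67, so a difference within it may have gone unseen. Of all H3K27ac regions 0.0822% were called, 9.6% had an unadjusted p under 0.05 and 14.5% had groups that did not overlap. The sign turned to negative without young replicate 1 (-0.13), without young replicate 3 (-0.07), without old replicate 3 (-0.13) and without scaling (-0.070). Its signal was 0.414 to 0.765 times that of the median H3K27ac region of the same library. Per kb, where its short length no longer counts, between 6.26 and 60.04% of regions were denser.

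At the borders of the H3K27me3 region, H3K27ac appeared again. The left border lay inside an H3K27ac region at the start of Atp5g1 (96073501 to 96077000), with a scaled signal of 11.1 ± 1.15 in young and 7.62 ± 5.35 in old MSCs (SD, n = 3 each, log2 fold change -0.87, adjusted p = 0.697 by limma). In a single old library that region held only 2 reads. On the right, H3K27ac resumed 4.5 kb past the end of the H3K27me3 region, with a region of 26 kb at the far end of Skap1 (log2 fold change -0.10, adjusted p = 0.852 by limma). A further H3K27ac region of 3.5 kb lay inside Skap1, and together H3K27ac covered 7 kb, or 1.09%, of the H3K27me3 region.

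The balance of the marks was described for each numbered sample as the log2 of summed scaled H3K27ac signal in the window minus the log2 of summed scaled H3K27me3 signal. The sums cover 2 kb of H3K27ac and 644.5 kb of H3K27me3, and the tables were normalized separately, so the level itself was not tested. For the Hoxb genes it was -9.02 ± 0.45 in young and -8.76 ± 0.47 in old MSCs (SD, n = 3 each), and the ages overlapped. With the same windows the Hoxd genes gave -5.14 and -6.24, the Hoxa genes -1.04 and -1.23, and the Hoxc genes -0.49 and 0.04 in young and old MSCs. Those sums covered 16 kb of H3K27ac and 244.5 kb of H3K27me3 for Hoxd, 97.5 and 176.5 kb for Hoxa, and 127 and 181.5 kb for Hoxc.

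The Hoxb cluster was the only one of the 4 Hox clusters with 0 bases inside H3K27ac. From the start of the outermost gene to the end of the last, 100% of the Hoxb cluster was inside H3K27me3 and outside H3K27ac. In the Hoxd cluster H3K27me3 also reached 100%, but 16.5% was inside H3K27ac as well. The Hoxa cluster was 59.4% inside H3K27ac alone, 29.3% inside both and 3.71% inside H3K27me3 alone. The Hoxc cluster was 49.1% inside H3K27ac alone, 47.4% inside both and 3.46% inside H3K27me3 alone. Each table holds a single list of regions, with a state of young, old or both for each region, so these shares have no replicates and no test. With the regions of both ages alone, an alternative chosen after seeing the data, the Hoxb shares stayed at 100% and 0%, and the share of the Hoxd cluster inside H3K27ac went from 16.5% to 2.07%, since its H3K27ac region of 14 kb had been called in young MSCs only. For Hoxa the share inside both marks went from 29.3% to 15.7%, and for Hoxc from 47.4% to 46.6%.

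**Figure D4:**
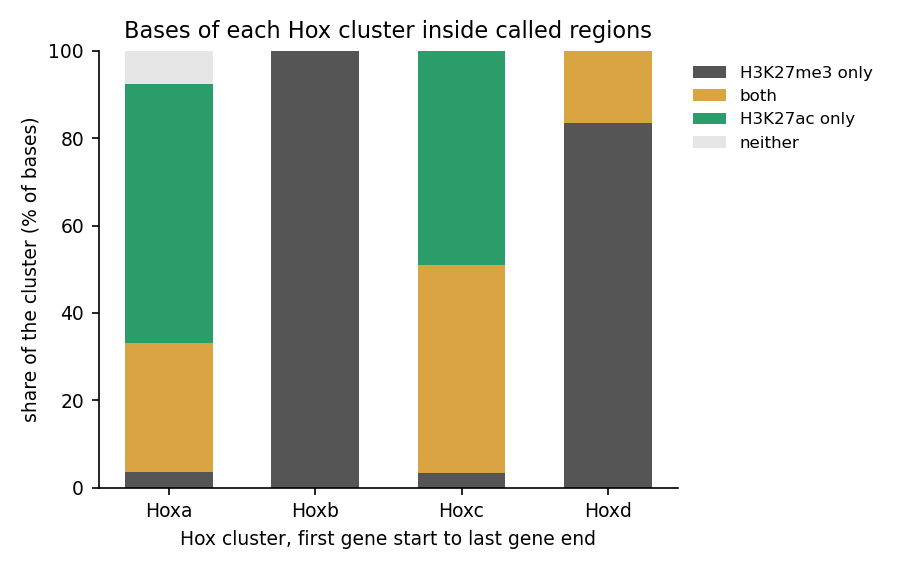
Share of the bases (vertical axis, in percent, stacked to 100) of each Hox cluster inside H3K27me3 regions alone, inside regions of both marks, inside H3K27ac regions alone and inside neither. The Hoxb bar is H3K27me3 alone over its whole height, while the Hoxa and Hoxc bars are 3.71% and 3.46% H3K27me3 alone.

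The paralogues of Hoxb2 to Hoxb13, that is the genes with the same number in the other clusters, mostly had H3K27ac at the TSS. These 9 Hoxb genes have 19 paralogues, and 15 of these had their TSS inside H3K27ac, 10 of them without H3K27me3. Each of the 9 had at least 1 paralogue with an acetylated TSS. For the anterior genes these were Hoxa2 for Hoxb2, Hoxa3 for Hoxb3, and Hoxa4 and Hoxc4 for Hoxb4. In the middle of the cluster they were Hoxc5 for Hoxb5, Hoxa6 and Hoxc6 for Hoxb6, Hoxa7 for Hoxb7, and Hoxc8 and Hoxd8 for Hoxb8. All 3 paralogues of Hoxb9, namely Hoxa9, Hoxc9 and Hoxd9, were acetylated at the TSS. Of the paralogues of Hoxb13, Hoxa13 and Hoxc13 carried both marks at the TSS and Hoxd13 carried H3K27me3 alone. In all 8 paralogues had a TSS inside H3K27me3, and for 3 of them, Hoxd3, Hoxd4 and Hoxd13, this was the only mark. The H3K27ac regions at Hoxd9 and Hoxa13 were called in young MSCs only, and with the regions of both ages alone 13 of the 19 paralogues had a TSS inside H3K27ac.

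H3K27me3 per length was next compared between clusters within each library. The scaled reads per kb per 1000000 library reads over the Hoxb region were 2.06, 2.26 and 2.39 in young and 2.11, 1.97 and 1.66 in old MSCs. The means were 2.24 ± 0.16 in young and 1.92 ± 0.23 in old MSCs (SD, n = 3 each), and the median H3K27me3 region of a library had 0.744 to 0.778. Corresponding means in young and old MSCs were 2.08 and 1.89 for Hoxd, 1.73 and 1.74 for Hoxa, and 1.77 and 1.47 for Hoxc.

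The Hoxb region was denser than the Hoxc regions in 6 of 6 libraries, by 0.36 ± 0.09 on the log2 scale (SD over libraries), and than the Hoxa regions in 6 of 6, by 0.26 ± 0.14. Each gave p = 0.03125 in an exact two-sided sign-flip permutation test, the smallest that 6 libraries allow, and 0.0469 after adjustment over the 3 comparisons. The test pooled young and old libraries. The Hoxb value covers the whole region of 644.5 kb, of which the cluster is 26.99%, so density over the genes alone was not compared. Against Hoxd the difference was 0.06 ± 0.06, positive in 5 of 6 libraries (exact permutation p = 0.09375, adjusted 0.0938). The age difference of these ratios, old minus young, was -0.23 against Hoxa, -0.08 against Hoxd and 0.05 against Hoxc. Young and old libraries did not overlap for Hoxa and Hoxd, with an exact permutation p of 0.10, the smallest possible, and 0.15 after adjustment over 3. They overlapped for Hoxc (p = 0.80, exact permutation). How often such ratios separate the ages among other regions was not counted.

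**Figure D5:**
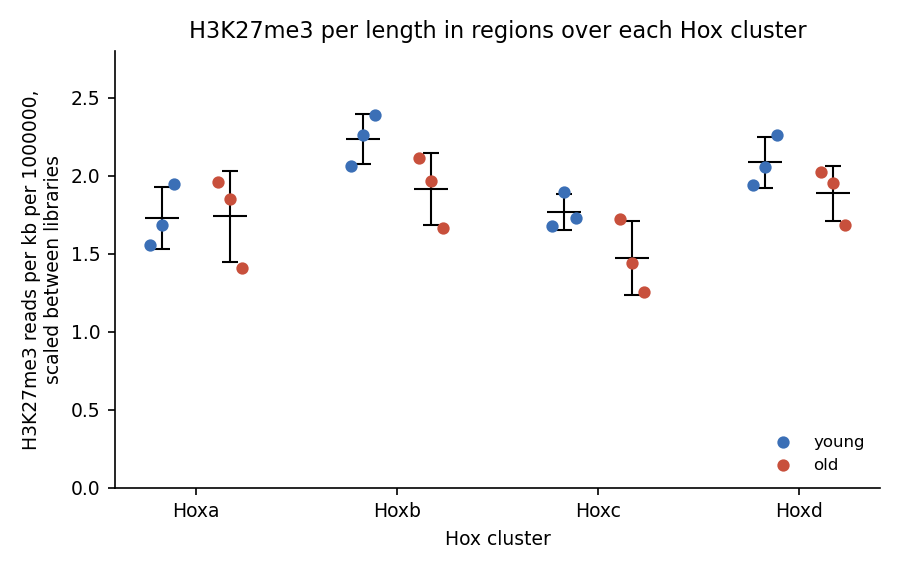
Scaled H3K27me3 reads per kb per 1000000 library reads (vertical axis, from 0) in the regions over each of the 4 Hox clusters, with a point per library, young and old side by side, and bars for the mean ± SD of 3. The Hoxb means of 2.24 and 1.92 are the highest of the 4 clusters in both ages, and the Hoxd values lie close to them.

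By limma, edgeR and DESeq2, 0 H3K27me3 regions over genes of the 4 clusters were called with age. An unadjusted limma p under 0.05 was found for 1 of 1 Hoxb and 3 of 3 Hoxc regions. It was found for 0 of 5 Hoxa and 0 of 1 Hoxd regions, and for 13.9% of all H3K27me3 regions. Of the Hoxc regions, 1 of 1 kb had been called in young MSCs only. In H3K27ac, where 0.0506% of all regions were called lower in old MSCs, 1 region over Hoxa13 fell (log2 fold change -1.81) and 1 region in the Hoxd cluster fell (-1.36, adjusted p = 0.00238 by limma). The authors had called both regions in young MSCs only, so a lower signal in old MSCs was partly built into their selection. The H3K27ac region of 103 kb over Hoxc genes had a log2 fold change of 0.28 (adjusted p = 0.0535 by limma), and edgeR called 1 Hoxc region. The Hoxd call was lost without young replicate 1 (adjusted p = 0.106 by limma), and both were lost without the trend and robust steps of limma (adjusted p = 0.293). The Hoxb cluster had 0 H3K27ac regions in which such a change could have been seen.

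Genes that act together with Hoxb proteins or upstream of them were then counted. The TALE cofactors, homeodomain proteins that bind DNA with Hox proteins, comprised 9 genes, and their 12 H3K27me3 regions lay over 5 of these. Of these regions 0 rose and 2 fell in old MSCs, against 0.406% of all H3K27me3 regions called lower, and the median log2 fold change was -0.54 against -0.01. An unadjusted p under 0.05 was found for 9 of the 12, against 13.9% of all H3K27me3 regions. How these 9 were spread over the 5 genes was not counted. Neighbouring regions of the same gene may change together, so the counts do not show a change across the cofactors. By edgeR 6 were called, against 394 of 28047 regions, and by DESeq2 2, against 87 of 17172. Both regions called by limma were in Meis2. A region of 12 kb (chromosome 2, 116056501 to 116068500) fell from 20.9 ± 1.46 to 5.91 ± 0.98 in scaled signal (SD, n = 3 each, log2 fold change -1.74, adjusted p = 0.000176 by limma) and remained called under 16 of 16 alternatives. A region of 2.5 kb (116008001 to 116010500) fell from 4.42 ± 1.14 to 1.01 ± 0.52 (log2 fold change -1.73, adjusted p = 0.0387 by limma). Its call was lost in 7 of 14 alternatives that gave an adjusted p. Among them was the omission of young replicate 1, 2 or 3 or of old replicate 1 (adjusted p up to 0.247 by limma). The ages in which the authors had called these Meis2 regions are not given here. For regions called in young MSCs only, a lower signal in old MSCs would be partly built into the selection. The alternatives used the same regions and cannot address this.

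Of their 37 H3K27ac regions 0 were called by limma, edgeR or DESeq2, and 4 had an unadjusted limma p under 0.05. Over all regions that share was 9.6% in H3K27ac and 13.9% in H3K27me3, also for the lists that follow. The 15 genes of retinoic acid signalling had 28 H3K27ac and 27 H3K27me3 regions, and 0 were called by limma. Of these, 1 and 5 had an unadjusted p under 0.05, and edgeR and DESeq2 each called 1 of the H3K27me3 regions. Among them, 9 genes had a TSS inside H3K27me3, including Aldh1a2 and Aldh1a3, which make retinoic acid, Cyp26a1, Cyp26b1 and Cyp26c1, which degrade it, and the receptor gene Rxrg. The TSS of 6 genes lay inside H3K27ac, namely those of the receptor genes Rara, Rarg, Rxra and Rxrb, of Aldh1a1, which also makes retinoic acid, and of Crabp2, a binding protein gene that carried both marks. The median log2 fold change of the 27 H3K27me3 regions was -0.12. The Cdx genes, whose products activate Hox genes in the posterior embryo, resembled the Hoxb genes in that 3 of 3 had a TSS inside H3K27me3 and 0 inside H3K27ac, while 28.4% of all coding TSS were inside H3K27me3. By limma, edgeR and DESeq2 0 of their 3 regions were called, and 2 had an unadjusted limma p under 0.05. Of 14 genes of Polycomb subunits and H3K27 demethylases, 10 had a TSS inside H3K27ac, against 50.1% of all coding TSS, among them Ezh2, Eed and Suz12 of the methylating complex, and Kdm6a and Kdm6b, which remove H3K27me3. Cbx2, Cbx7 and Cbx8, which encode readers of H3K27me3, had a TSS inside H3K27me3. Limma called 0 of the 30 H3K27ac and 0 of the 8 H3K27me3 regions of this list, of which 2 and 1 had an unadjusted p under 0.05, and edgeR called 1 of the H3K27me3 regions.

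The label of MSCs was examined with marker genes. The TSS of 12 of 12 stromal markers, such as Pdgfra, Thy1, Prrx1 and Col1a1, lay inside H3K27ac, as did 50.1% of all coding TSS, and those of Nt5e and Lepr were inside H3K27me3 as well. Of 8 blood markers only that of Ly6c1 did, and Ptprc, the CD45 gene, did not. Of 5 endothelial markers 0 did. The libraries held 2750953 to 5541429 reads for H3K27ac and 3622108 to 9947515 for H3K27me3, with old replicate 2 the shallowest for both marks, and a median of 12 to 30 and 28 to 79 reads per region. Fewer cells carrying a mark and less of the mark per cell cannot be told apart in these bulk libraries.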

How the data were processed

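For each mark the authors deposited a table with a signal value for every region and replicate. The values are called RPKM in the table name, but each was a whole number of reads, per 1000000 of the library, divided by a constant 0.5 kb and not by the length of the region. Whole read counts were therefore recovered from the deposited signal, with 100% of values whole within 0.02 reads, and a count test was run beside the planned test. That check does not test the constant of 0.5 kb itself. Library read totals, shares of the library and folds over the genome mean rest on this constant. Per the submitters' processing notes, Bowtie2, Picard and mm10 were used; the region caller is not given in the sources used here. The yeast spike-in was not used here. Of the columns with values for a sample, 0 were left unused.

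Each table was scaled by the median of ratios (RLE), 0.5 was added, and log2 values were fitted over all regions with limma 3.58.1 in R 4.3.3, with a variance trend, robust moderation and age as the only term. P-values were two-sided and adjusted by Benjamini-Hochberg, and a region was called under 0.05. Alternatives used edgeR 4.0.16, DESeq2 1.42.0, other scalings, pseudocounts and filters, a replicate block and the omission of each replicate. Single values were compared with exact permutation tests. The fits were tested on simulated data. Wilson intervals cover counting error only, since reads are not independent molecules.

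Genes came from the GENCODE vM21 basic annotation, and sequences from RefSeq (microRNAs and promoters) and the GRCm38.p6 genome. The members and gene lists were chosen with earlier results of these data known. All 10 Hoxb genes and every region of their window were named whatever their values.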

Additional observations from a re-analysis of the deposited data

How the results depend on the processing

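Of the H3K27me3 region over the Hoxb genes, the log2 fold change stayed negative and failed the threshold under 19 of 19 alternatives, from -0.35 to -0.13, with adjusted p-values of 0.0872 to 0.554. With each replicate left out in turn it lay between -0.30 and -0.13. It was -0.22 with edgeR and with DESeq2, and -0.18 relative to the reads in H3K27me3 regions, an alternative that, like scaling on regions of 100 kb or more, was chosen after seeing the data. The H3K27ac region did not pass the threshold in any of 17 alternatives, and its sign turned in 4, at -0.070 without scaling and within a range of -0.13 to 0.30 with each replicate left out. The cause was not tested. Some alternatives could not differ from the main fit, since they kept the same region. These were no window and a window of 100 kb for H3K27me3, and a window of 100 kb or 50% inside for H3K27ac. Relative to the reads in H3K27me3 regions only an exact permutation test was run, whose smallest p is 0.10.

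Same-numbered young and old libraries correlated in their deviations by only 0.09, 0.02 and -0.09 in H3K27ac and 0.04, 0.07 and -0.11 in H3K27me3. With so few libraries per age, these values cannot settle whether the replicate numbers pair the samples. With a replicate block the log2 fold change was -0.23 in H3K27me3 and 0.03 in H3K27ac, and the regions called in the whole table went from 26 to 81 in H3K27ac and from 137 to 309 in H3K27me3.

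Over all regions the number called depended on the setting. In H3K27ac it ran from 0 without the trend and robust steps (3035 regions had an unadjusted p under 0.05 in the main fit) to 105 without scaling, of which 89 were lower against 16 of 26 in the main fit, and was 96 with edgeR (41 lower), 6 with DESeq2, 14 and 45 with pseudocounts of 0.1 and 1, and 2 to 45 with a replicate left out. In H3K27me3 it ran from 10 to 313 with a replicate left out, and was 774 without scaling (753 lower, against 114 of 137), 394 with edgeR, 87 with DESeq2, 71 with a pseudocount of 0.1, 81 with the 25% lowest regions left out, 35 without the trend and robust steps and 68 with scaling on long regions (36 lower). Coverage of the Hoxb cluster was the same with the regions of both ages alone, and the balance of the marks over it moved by less than the spread between replicates. No value was obtained for H3K27ac without the 50 kb window (0 regions) or with the 25% lowest regions left out, which removed the region, nor for H3K27me3 if 50% of a region had to lie in the window, since 42.5% did.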
